A study of Mus musculus with 5 samples.

Results

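The genes described here are 7 readers of N6-methyladenosine (m6A) that lack a YTH domain: Igf2bp1, Igf2bp2 and Igf2bp3 (the IGF2BP family), Fmr1, Fxr1 and Fxr2 (the FMRP family) and Prrc2a. They were chosen by symbol from a table of 35976 gene rows, and all 7 have a row. The table covers haematopoietic stem cells (HSCs) of C57BL/6 mouse bone marrow in 5 libraries, 2 labelled WT and 3 labelled Ythdf3-/-, where Ythdf3 encodes a cytoplasmic m6A reader of the YTH family. Each library was made by Smart-seq2 from 30 cells sorted by surface markers (no lineage markers or CD34, but CD150, c-kit and Sca-1). Each came from its own mouse, according to the series text. No treatment other than genotype separates the groups, and neither the allele nor the age of the animals is given in the sources used here.

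Methylation of adenosine in mRNA is laid down by a writer complex in the nucleus and is read by proteins that bind the marked transcript. YTH proteins hold the methyl group in a dedicated pocket and are best known for shortening the life of the transcript. IGF2BP proteins bind through paired KH domains and are known for the opposite, the stabilisation and storage of marked mRNA. FMRP and its paralogues FXR1 and FXR2 are KH domain proteins that travel with mRNA, hold back translation and have been tied to nuclear export of methylated transcripts. PRRC2A is a large, mostly unstructured protein for which m6A binding has been described in glia. IGF2BP1 and IGF2BP3 are regarded as oncofetal proteins, made in the embryo and in tumours and little in most adult tissues.

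Counts of the targeted gene went against the labels in the libraries labelled Ythdf3-/- 2 and 3, while Ythdf3-/- 1 had the fewest. For Ythdf3 they were 20 (WT 1) and 29 (WT 2), but 2, 339 and 366 in the libraries labelled Ythdf3-/- 1, 2 and 3. The series text moreover counts 2 knockout and 3 wild-type samples. Every direction below therefore refers to the label alone, and for the members it is also given for the library labelled Ythdf3-/- 1 alone against both labelled WT. Library totals lay between 6357862 and 16650134, so 3 counts, taken as the limit that a count of 0 allows, correspond to between 0.180 and 0.472 CPM, the count scaled to the library total. All 10 markers of HSCs had at least 3 counts in 3 of the 5 libraries and 9 of 10 in the other 2, with a summed level of 1596 to 3125 CPM. Slamf1, the gene of CD150, had 1 count in WT 2, against 211 to 482 in the other libraries. Fgd5 had 2 counts in Ythdf3-/- 1 and 5 in Ythdf3-/- 3. Markers of other cells were uneven: erythroid genes summed to 35597 CPM in the library labelled Ythdf3-/- 1, to 1451 CPM in that labelled WT 2 and to at most 162.8 CPM elsewhere. The sum in Ythdf3-/- 1 was mostly of globin genes such as Hba-a1 (18520 CPM) and Hbb-bs (8116 CPM). Gata1 stood at 0.157 and Epor at 49.07 CPM there. In WT 2 Hba-a1 stood at 271.9, Car1 at 456.4, Gata1 at 118.3 and Epor at 52.74 CPM.

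**Figure D1:**
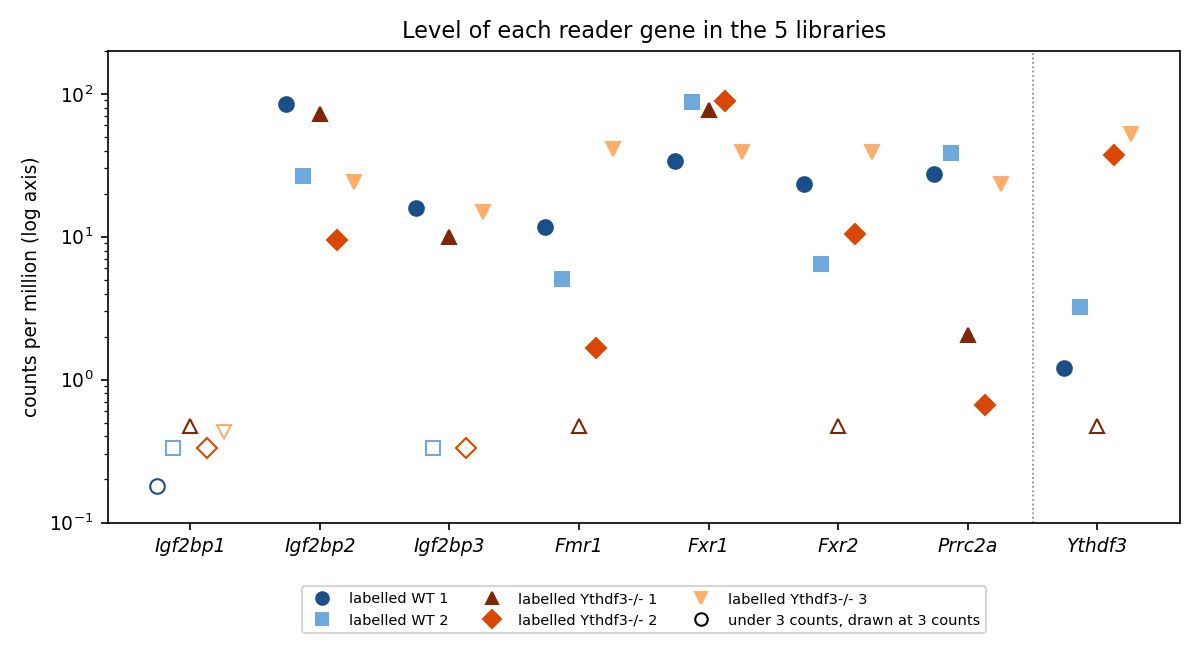
CPM (log axis) of the 7 reader genes and of Ythdf3 in each of the 5 libraries, 1 point per library; open symbols have under 3 counts and are drawn at the level of 3 counts. Igf2bp1 is open in all 5 libraries, Igf2bp3 in 2 libraries, Fmr1 and Fxr2 in 1 library each, and Fxr1 spans the narrowest range.

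Of the 7 members, Igf2bp2, Fxr1 and Prrc2a had at least 3 counts in all 5 libraries, Igf2bp3, Fmr1 and Fxr2 in some, and Igf2bp1 in none. Reads of a 30-cell library report the pool, so fewer cells of a type and less RNA per cell cannot be told apart. Such gaps were usual at these levels. Among genes with a mean within 1.5 times that of the member, at least 1 library under 3 counts was found for 87.9% of 1773 genes at the level of Igf2bp3, 79.0% of 1940 at that of Fmr1 and 67.5% of 2152 at that of Fxr2. The share was 60.5% at the level of Prrc2a, 16.03% at that of Igf2bp2 and 5.002% at that of Fxr1, where these members had no such library.

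Igf2bp1 (chromosome 11, 95957163 to 96005944 in mm10), the founding member of the IGF2BP family and a regulator of mRNA localisation, had 0 counts in all 5 libraries. This allows at most 0.180 CPM in the first library labelled WT and 0.335 CPM in the second. The limits for those labelled Ythdf3-/- 1, 2 and 3 are 0.472, 0.331 and 0.428 CPM.

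Igf2bp2 (chromosome 16, 22059009 to 22163299), the family member that persists in adult tissues and is known in metabolism and stem cell maintenance, was the main IGF2BP transcript. It stood at 84.6 CPM (WT 1) and 26.7 CPM (WT 2) and at 72.5, 9.47 and 23.9 CPM in those labelled Ythdf3-/- 1, 2 and 3. The groups overlapped, since each label had 1 library above 70 CPM and the others below 30. The 95% Wilson intervals of the highest and lowest libraries, 80.3 to 89.1 and 7.67 to 11.7 CPM, were far apart. These intervals cover counting error only, because reads copied by PCR and carrying no molecular barcode do not count molecules one by one. The highest library was 8.93-fold above the lowest.

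Igf2bp3 (chromosome 6, 49085218 to 49215469), the oncofetal paralogue, had at least 63 counts in 3 libraries and at most 2 in the other two. It had 264 counts (15.9 CPM) in WT 1, 63 (9.91 CPM) in Ythdf3-/- 1 and 104 (14.8 CPM) in Ythdf3-/- 3. WT 2 held 2 counts and Ythdf3-/- 2 held 1. Both labels thus held libraries with and without it. Its coefficient of variation, the SD over the mean of the 5 libraries, was 0.935 against a median of 1.46 among the 1773 genes of like level, of which 12.6% had a lower value. Of its exon length 18.7% is shared with Malsu1 on the opposite strand, and the strand setting of the counts is not given. Malsu1, named because of that overlap, had 626 and 573 counts with the WT label and 5, 366 and 27 with the Ythdf3-/- label. The part of Malsu1 reads in the counts of Igf2bp3 was not tested.

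Libraries with much Igf2bp2 were also those with the most transcripts of B lymphoid genes. The 10 genes of that list, which include Vpreb1, Cd79a and Ebf1, summed to 611.3 CPM in the library labelled WT 1 and to 1572 CPM in Ythdf3-/- 1. They summed to 58.3, 219.9 and 132.5 CPM in those labelled WT 2, Ythdf3-/- 2 and Ythdf3-/- 3. Between 7 and 10 of the 10 had at least 3 counts in every library, and none was at 0 throughout. Igf2bp3 followed this only in part, being present in the library labelled Ythdf3-/- 3 as well. The part of B lymphoid RNA in the levels of Igf2bp2 and Igf2bp3 was not tested.

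In the FMRP family, Fxr1 was the steadiest transcript of all members, while Fmr1 and Fxr2 had profiles close to each other over the libraries. Fxr1 (chromosome 3, 34020058 to 34069980), a paralogue of FMRP known for its role in muscle and in the control of cytokine mRNA, stood at 34.1 and 87.4 CPM with the WT label. Under the Ythdf3-/- label it stood at 76.9, 89.5 and 39.0 CPM. No library lay more than 2.62-fold below another, and the low and the high libraries came from both labels. Its coefficient of variation over the 5 libraries was 0.410, against a median of 0.646 among 2699 genes with a mean within 1.5 times its own. An overlap with exons of Dnajc19 on the opposite strand covers 2.72% of its exon length.

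Fmr1 (chromosome X, 68678536 to 68717963), the gene silenced in fragile X syndrome, stood at 11.8 and 5.02 CPM with the WT label. Ythdf3-/- 1 had 0 counts, and the gene stood at 1.65 CPM in Ythdf3-/- 2 and 40.9 CPM in Ythdf3-/- 3. The highest library was at least 86.7-fold above the library at 0, taking 3 counts in that library as its limit. The 3 libraries labelled Ythdf3-/- thus held both the highest and the lowest level of this gene.

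Fxr2 (chromosome 11, 69632971 to 69653297), the paralogue that binds both FMRP and FXR1, stood at 23.2 and 6.47 CPM with the WT label. It too was at 0 counts in Ythdf3-/- 1, where 0.472 CPM is the limit, with 10.5 and 38.9 CPM in Ythdf3-/- 2 and Ythdf3-/- 3. The order of the libraries was that of Fmr1 except that Ythdf3-/- 2 lay above WT 2. The library at 0 for both genes had the highest erythroid sum (35597 CPM, mostly of globin genes). It also had the fewest counts in all, 6357862. The part of either in the zeros was not tested.

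The likeness of profiles was measured as the root mean square difference between log2(CPM + 1) values, each gene being centred on its mean over the 5 libraries, so that 0 means the same profile. Of the 15 pairs among the 6 members with any counts, Fmr1 and Fxr2 were closest (0.808), followed by Igf2bp2 and Igf2bp3 (1.25) and by Fmr1 and Prrc2a (1.35). Fmr1 and Fxr1 differed by 2.33. Among 8655 genes with given names and a mean of at least 10 CPM, Fxr2 was the 23rd closest to Fmr1, and Fmr1 the 110th closest to Fxr2. The closest to Fmr1 were Dhx9 (0.320), an RNA helicase, and Papd5 (0.395), a poly(A) polymerase. The closest to Fxr2 were Gdap10 (0.137) and Decr2 (0.186), and the closest to Fxr1 was Gsto1 (0.0764). For Igf2bp2 they were Zmym1 (0.269) and Hjurp (0.271). With 5 libraries and 8655 candidates these are descriptions without a test.

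Because Fmr1 and Fxr2 had the closest profiles of any member pair, the stretch upstream of each start is shown. Both are from RefSeq, GRCm38.p6, plus strand, 5′ to 3′, and capitals mark 2 copies of GCGC with any 2 bases between them, a palindrome like the one bound by the transcription factor NRF1.
Fmr1 chrX:68678291-68678535: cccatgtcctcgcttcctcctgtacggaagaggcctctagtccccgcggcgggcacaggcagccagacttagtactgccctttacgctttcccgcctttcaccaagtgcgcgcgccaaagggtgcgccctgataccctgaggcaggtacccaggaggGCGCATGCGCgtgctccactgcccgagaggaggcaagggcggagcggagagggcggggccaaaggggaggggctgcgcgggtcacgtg
Fxr2 chr11:69632721-69632970: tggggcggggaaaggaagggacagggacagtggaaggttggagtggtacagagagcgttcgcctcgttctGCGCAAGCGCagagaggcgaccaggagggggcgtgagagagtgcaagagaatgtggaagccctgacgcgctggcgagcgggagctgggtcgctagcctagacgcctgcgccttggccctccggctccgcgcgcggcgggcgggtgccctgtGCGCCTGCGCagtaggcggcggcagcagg

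The Fmr1 stretch of 245 bases held 1 match (GCGCATGCGC), which began 88 bases before its end. The Fxr2 stretch of 250 bases held 2 matches (GCGCAAGCGC and GCGCCTGCGC), beginning 180 and 29 bases before its end. The palindrome reads alike on both strands at its fixed letters, and it was found in 4.98% of 32851 windows of 250 bases before an annotated start. It was not found in the windows of Igf2bp2, Igf2bp3, Fxr1 or Prrc2a, and Igf2bp1 had no window. The windows of Igf2bp3 (49214905 to 49215204) and Prrc2a (35164828 to 35165127) precede a start that lies within the gene span given above. What they hold, here and below, is therefore not from upstream of the outermost start, unlike the stretches of Fmr1 and Fxr2. A second palindrome, the E-box CACGTG, was present in 6.02% of windows, among them those of Fmr1 and Igf2bp3. Also looked for on both strands, GGGCGG was present in 32.7% of windows, among them those of Fmr1, Fxr2, Fxr1, Igf2bp2 and Prrc2a. A match shows only that these letters are there. The windows of the 6 members that had one were rich in G and C, from 60.4% in Igf2bp3 to 80.0% in Fxr1. The median of all windows was 52.4%. The shares given above are over all windows, not over windows as rich in G and C as these.

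Prrc2a (chromosome 17, 35149076 to 35165321) was the 1 member whose libraries did not overlap between the labels, as was so for 20.7% of the 11146 genes tested. It stood at 27.3 and 38.6 CPM with the WT label and at 2.04, 0.661 and 23.4 CPM with the Ythdf3-/- label. Ythdf3-/- 1 and 2 were thus far below the others, with 13 and 6 counts, whereas Ythdf3-/- 3 lay just below the lower library labelled WT. The 95% Wilson intervals of those neighbours, 20.1 to 27.2 and 24.9 to 30.0 CPM, overlapped. The closest profiles were those of Dnajb3 (0.305) and Eid1 (0.330).

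The paralogues of Prrc2a, PRRC2B and PRRC2C, share its disordered build and act in translation initiation. Prrc2b stood at 116 and 187.3 CPM with the WT label and at 52.9, 9.25 and 80.9 CPM with the Ythdf3-/- label, again without overlap. Prrc2c stood at 138.4 and 367.6 CPM against 129.6, 195 and 252.8 CPM, with overlap. Prrc2b was lowest in Ythdf3-/- 2, as Prrc2a was, and Prrc2c in Ythdf3-/- 1.

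**Figure D2:**
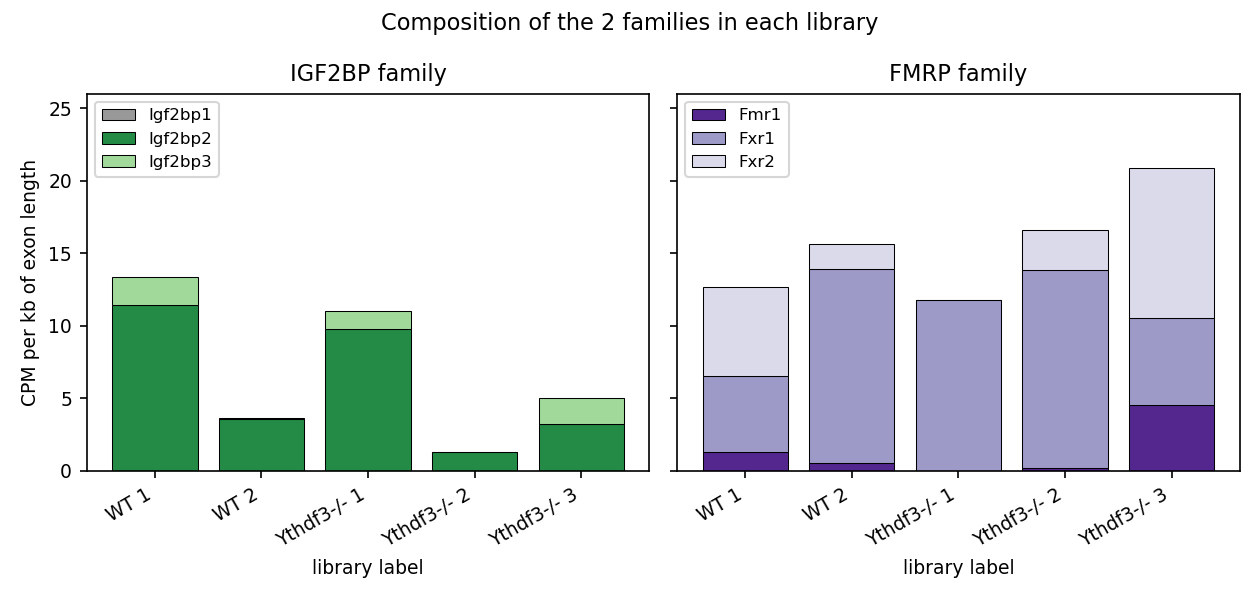
Summed level of each family in each library in CPM per kb of exon length, stacked by gene. IGF2BP bars run from 1.29 to 13.4 CPM per kb and are mostly Igf2bp2, while FMRP bars run from 11.7 to 20.8 and are at least 82.2% Fxr1 in 3 libraries.

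Levels between genes were compared per length, as CPM per kb of the summed exon length in GENCODE M21. Fxr1 had the highest mean, 9.98 ± 4.09 CPM per kb (SD, n = 5), followed by Igf2bp2 at 5.87 ± 4.46, Fxr2 at 4.197 ± 4.10, Prrc2a at 2.41 ± 2.17, Fmr1 at 1.32 ± 1.88 and Igf2bp3 at 1.003 ± 0.938. The difference between each pair of neighbours among these 6 was smaller than the SD of at least 1 of them. Fxr1 ranked first in the libraries labelled WT 2, Ythdf3-/- 1 and Ythdf3-/- 2, Igf2bp2 in WT 1 and Fxr2 in Ythdf3-/- 3. With coding length as the divisor the first place went to Igf2bp2 in Ythdf3-/- 1 and to Fmr1 in Ythdf3-/- 3. By mean Fxr1, Igf2bp2 and Fxr2 kept the first 3 places, but Prrc2a, whose coding sequence of 6474 bases makes up most of its transcript, moved from place 4 to place 6.

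The make-up of the FMRP family varied more between libraries than its sum. Its summed level was 69.1 and 98.9 CPM with the WT label and 76.9, 101.6 and 118.9 CPM with the Ythdf3-/- label, a span of 1.72-fold. Per kb, Fxr1 made up 41.1% (WT 1) and 85.4% (WT 2) of the family. It made up 100%, 82.2% and 28.6% in those labelled Ythdf3-/- 1, 2 and 3. In Ythdf3-/- 3, where Fmr1 and Fxr2 were highest, Fxr2 made up 49.5% and Fmr1 21.9%. The IGF2BP family summed to 100.4 and 26.9 CPM against 82.4, 9.59 and 38.8 CPM, a span of 10.5-fold. Igf2bp2 made up between 64.0% (Ythdf3-/- 3) and 99.2% (WT 2) of that family per kb.

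The comparison between the labels asks whether stem cells said to lack one m6A reader carry other amounts of mRNA for the readers of other families. No member passed the test of a difference between the labels. In edgeR's quasi-likelihood test 6 members passed the filter on low counts and were tested, and 0 passed, against 0% of the 11146 genes tested (0 genes). An unadjusted p under 0.05 was reached by 0 of the 6, where 4.85% of all genes tested (541) reached it. DESeq2 called 594 of 13299 genes (4.47%) and limma voom 0 of 11146 (0%), and neither called a member. Of the 6, 3 were fitted higher, as were 47.8% of all genes tested, and 3 lower, as were 52.2%. Libraries did not overlap between the labels for 1 of the 6 members, against 20.7% of all genes tested, so that count is near the background.

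**Figure D3:**
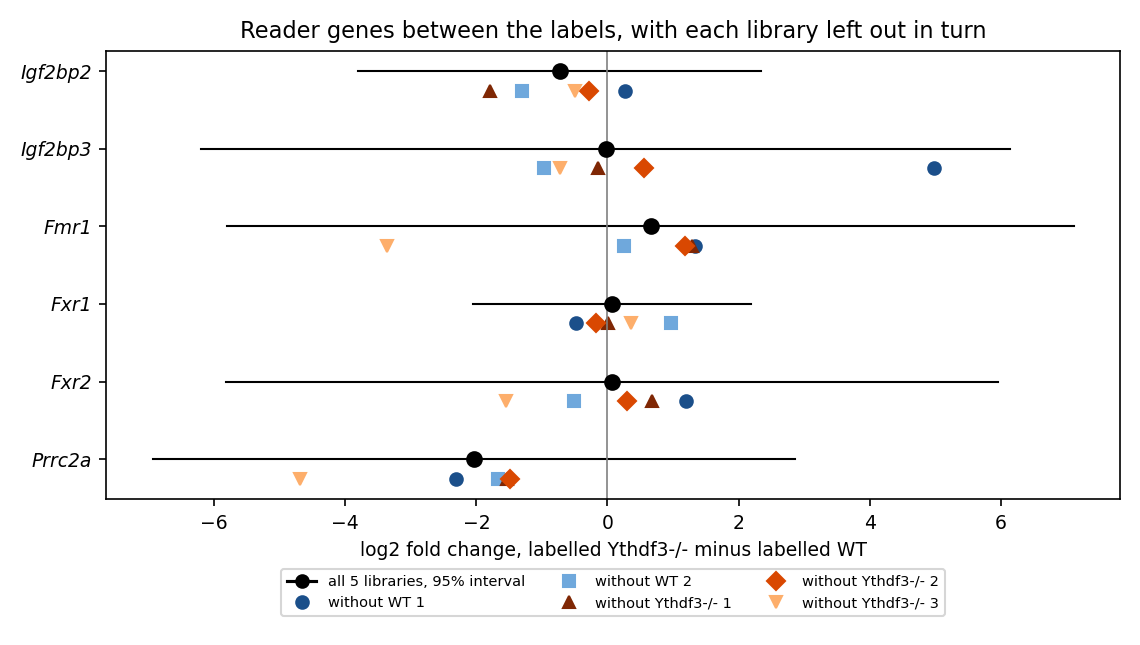
Log2 fold change of each tested member, Ythdf3-/- minus WT by label (black, with the 95% interval from edgeR), and the same with each library left out in turn (coloured). All 6 intervals span 0, and the sign of Igf2bp2, Igf2bp3, Fmr1, Fxr1 and Fxr2 depends on which libraries enter.

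Prrc2a had the largest fitted difference of the members, from 32.954 ± 7.96 CPM (SD, n = 2) with the WT label to 8.69 ± 12.7 CPM (SD, n = 3) with the Ythdf3-/- label. This is a log2 fold change of -2.04 (SE 2.13, 95% interval -6.94 to 2.86, edgeR adjusted p = 0.9998). The sign was negative under all 15 alternatives run, but the value became -4.68 when Ythdf3-/- 3 was left out (edgeR adjusted p = 0.99995), and was -4.11 for Ythdf3-/- 1 alone against both labelled WT. Without Ythdf3-/- 1 it was -1.53 and without Ythdf3-/- 2 it was -1.49.

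Igf2bp2 went from 55.6 ± 41.0 CPM (SD, n = 2) to 35.3 ± 33.018 CPM (SD, n = 3), with a log2 fold change of -0.73 (SE 1.33, interval -3.80 to 2.34). That value was 0.27 without the library labelled WT 1, -1.79 without Ythdf3-/- 1 and 0.30 for Ythdf3-/- 1 alone against both labelled WT. Igf2bp3 averaged 8.04 ± 11.1 and 8.28 ± 7.49 CPM, with a log2 fold change of -0.03 (SE 2.68, interval -6.20 to 6.14). Its sign turned under each of the 3 other scalings, and the value was 4.98 without WT 1, -0.97 without WT 2 and 0.23 for Ythdf3-/- 1 alone. Igf2bp1 could not be tested. The adjusted p of each was 0.9998 in edgeR.

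Fxr1 had the narrowest interval of the members, with a log2 fold change of 0.07 (SE 0.92, interval -2.04 to 2.19) between 60.8 ± 37.7 and 68.5 ± 26.2 CPM. Even this interval admits a 4-fold difference in either direction. The value was -0.47 without WT 1, 0.97 without WT 2 and 0.23 for Ythdf3-/- 1 alone. Fmr1 averaged 8.39 ± 4.78 CPM with the WT label and 14.2 ± 23.2 CPM with the Ythdf3-/- label, with a log2 fold change of 0.66 (SE 2.80, interval -5.80 to 7.11). It was -3.36 without the library labelled Ythdf3-/- 3. Fxr2 averaged 14.8 ± 11.8 and 16.5 ± 20.1 CPM, with 0.07 (SE 2.56, interval -5.83 to 5.96), and was -1.54 without the library labelled Ythdf3-/- 3. In Ythdf3-/- 1 alone, where both are at 0, Fmr1 was at least 17.8-fold and Fxr2 at least 31.4-fold below the mean of the libraries labelled WT, against the limit of 3 counts. That comparison has 1 library on one side, and neither passed in edgeR (adjusted p = 0.903 for each).

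**Figure D4:**
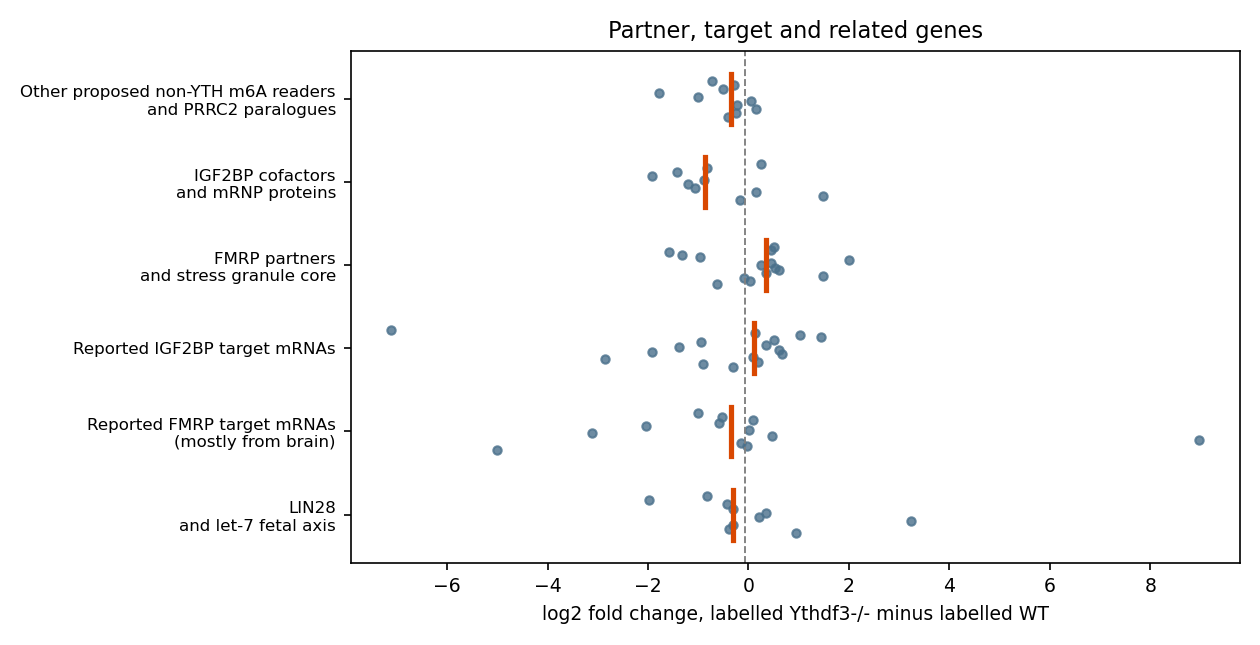
Log2 fold change (edgeR), Ythdf3-/- minus WT by label, of every tested gene of 6 related lists (points), with the median of each list (orange bar) and of all tested genes (dashed line). No point passed the test, and the list medians lie between -0.86 and 0.34.

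Genes that work with the members were read from 6 lists, and no gene of them passed over all genes tested. The median log2 fold change of all 11146 genes was -0.06, and 52.2% of them were fitted lower with the Ythdf3-/- label. Over all genes tested in the fits with a library left out, the median was 0.31 without WT 1, 0.22 without WT 2 and -0.10 without Ythdf3-/- 2. The list medians given below for those fits are to be read beside these values. Of 10 other proposed non-YTH readers and PRRC2 paralogues, 2 were fitted higher and 8 lower, with a median of -0.35. Hnrnpc, a nuclear RNA-binding protein whose access to RNA is changed by the methyl mark, was even, at 365.6 and 312.4 CPM with the WT label and 404.9, 415.9 and 297.3 CPM with the Ythdf3-/- label. Hnrnpa2b1, which binds marked primary microRNA transcripts, stood at 313.7 and 805.5 CPM against 426.7, 581.7 and 543.1 CPM. Snd1, a nuclease domain protein, had a log2 fold change of -0.73 (SE 0.54). That of Prrc2b was -1.78 (SE 0.92, edgeR adjusted p = 0.983) and that of Prrc2c -0.50 (SE 0.55). All 10 had at least 3 counts in all 5 libraries, which held for 3 of the 7 members. The levels were unlike, however, as the means of the 10 over the 5 libraries ran from 49.3 (Lrpprc) to 534.2 CPM (Hnrnpa2b1). Igf2bp3, Fmr1 and Fxr2 averaged 8.18, 11.9 and 15.8 CPM, levels at which most genes had such a gap, as given above.

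Of 10 cofactors of IGF2BP proteins, 3 were fitted higher and 7 lower, with a median of -0.86. Pabpc4, a poly(A)-binding protein, stood at 79.1 and 158 CPM with the WT label and at 23.4, 52.7 and 24.7 CPM with the Ythdf3-/- label, with a log2 fold change of -1.91 (SE 0.87). Pabpc1, the main cytoplasmic poly(A)-binding protein, stood at 669.4 and 1166 CPM against 739.9, 361.3 and 491.8 CPM, and Hnrnpu had -1.06 (SE 0.54). Libraries did not overlap for 2 of the 10, both lower, Pabpc4 and Matr3, where 11.0% of all genes tested did so in that direction. The list's median was -0.31 without the library labelled WT 2 and -1.34 without WT 1.

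Of 15 partners of FMRP and core proteins of stress granules, 10 were fitted higher and 5 lower, with a median of 0.34. G3bp1, the scaffold of stress granules, stood at 240.5 and 344.2 CPM with the WT label and at 540.1, 477.2 and 414.3 CPM with the Ythdf3-/- label. Ubap2l, which binds G3BP1, stood at 179.2 and 102.8 CPM against 185.4, 228.5 and 196.5 CPM. These 2 did not overlap in the higher direction, which 9.74% of all genes tested did. In the other direction the related splicing regulators Tia1 (148.2 and 230.6 against 115.8, 75.0 and 120.7 CPM) and Tial1 (91.9 and 76.7 against 22.5, 39.1 and 46.6 CPM) did not overlap. That was so for 11.0% of all genes tested in the lower direction. Cyfip1, the partner that joins FMRP to the translation factor eIF4E, had a log2 fold change of 1.48 (SE 0.86), and Top3b, a topoisomerase that acts on RNA, had -1.59 (SE 0.75). The list's median turned to -0.06 without the library labelled WT 1.

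Reported target mRNAs were fitted in both directions, and none passed the test. Of 20 reported targets of IGF2BP proteins, 16 were tested, 9 were fitted higher and 7 lower, with a median of 0.11 that was -0.37 without WT 1 and 0.77 without WT 2. Unadjusted p was under 0.05 for 2 of the 16, Myc and Tk1, in opposite directions, where 4.85% of all genes tested reached it. Myc stood at 343.8 and 237.5 CPM with the WT label and at 1028, 736.9 and 755.2 CPM with the Ythdf3-/- label (log2 fold change 1.45, SE 0.34, edgeR adjusted p = 0.964). Tk1, a kinase of DNA synthesis, had 57 and 1176 counts against 4, 2 and 5 (same adjusted p). The sum of 12 proliferation genes, which include Tk1, was likewise highest in WT 2, at 1111 CPM, and at most 364.6 CPM elsewhere, and its part in the level of Tk1 was not tested. Mycn stood at 258.5 and 157.6 CPM with the WT label and at 248.8, 511.4 and 592.3 CPM with the Ythdf3-/- label, with a log2 fold change of 1.03 (SE 0.48). Of 12 reported targets of FMRP, known mostly from brain, 4 were fitted higher and 8 lower, with a median of -0.34 that was -0.74 without WT 1 and 0.13 without WT 2. Map1b, a microtubule protein and a classic target of FMRP, had 1 and 0 counts with the WT label and 236, 323 and 0 with the Ythdf3-/- label. App had 901 and 105 counts against 0, 27 and 1, and Sod1 a log2 fold change of -0.53 (SE 0.28).

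The fetal axis in which LIN28 blocks the let-7 microRNAs, and let-7 in turn represses Hmga2, Igf2bp1 and Igf2bp3, was read beside the oncofetal members. Lin28a had 1 count in all 5 libraries together and Lin28b 2 counts in the library labelled WT 1 and 1 in Ythdf3-/- 3. H19 had 0 counts in every library, and Igf2 had 62 counts in Ythdf3-/- 3 and at most 4 elsewhere. Hmga2, a chromatin protein of fetal stem cells, was present throughout, at 19.5 and 41.0 CPM with the WT label and 51.9, 34.6 and 37.8 CPM with the Ythdf3-/- label. Of 14 genes in the list 10 were tested, 4 fitted higher and 6 lower, with a median of -0.32. That median was 0.07 without WT 1, 0.18 without WT 2 and 0.24 without Ythdf3-/- 2. The medians of all genes tested in those fits were 0.31, 0.22 and -0.10. Dis3l2, the exonuclease that degrades uridylated let-7 precursors, stood at 14.1 and 0.669 CPM against 56.5, 123.8 and 35.9 CPM, with a log2 fold change of 3.24 (SE 1.66, edgeR adjusted p = 0.983). The uridyl transferases of that pathway, listed as Zcchc11 and Zcchc6 (Tut4 and Tut7), had -1.97 (SE 1.55) and -0.83 (SE 0.91).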

How the data were processed

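The authors deposited 1 table of raw counts, with a gene symbol per row and a column for each of the 5 libraries. HISAT2 2.2.1, HTSeq 0.12.4 and build mm10 are named in the submitters' processing notes; for annotation, strand setting and multiply mapped reads, the sources used here give nothing. Groups follow the sample labels. Replicates are separate mice, per the series text. CPM are counts divided by the library total. Counts were tested in edgeR 4.0.16 under R 4.3.3 (default filter by group, TMM scaling, robust quasi-likelihood fit, no covariate, Benjamini-Hochberg adjustment over all 11146 genes at 0.05), after a check on simulated counts. That check required differences to be found only at a smaller spread than that of these data, whose common biological coefficient of variation was 1.261. SEs come from the F statistic. Alternatives were 3 scalings, 2 filters, DESeq2 1.42.0, limma 3.58.1 voom, the replicate block, each library left out, and 2 pairs of libraries left out. The members, the 6 lists of 77 genes and the pairs were chosen with earlier results of these data known. Named genes are the members, Ythdf3, the 2 nearest profiles per member with a mean of at least 10 CPM, and the 3 smallest p per list; any member of the reader, FMRP partner and fetal lists may be named. One gene that this rule names is not reported here. Matr3, Malsu1, Dnajc19 and the HSC, erythroid and B lymphoid genes were named after their values were seen. All 7 members matched RefSeq (GRCm38.p6), the source of coordinates and promoters; exon lengths are from GENCODE M21.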

Additional observations from a re-analysis of the deposited data

How the results depend on the processing

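No member passed under any of the 15 alternatives. EdgeR called 0 genes, 21 with no filter on low counts, 7 with the library labelled Ythdf3-/- 1 alone against both labelled WT, and between 0 and 1 with each library left out; DESeq2 called 594. The log2 fold change of Igf2bp3, -0.03, turned to 0.027 with RLE scaling, 0.052 with upper-quartile scaling, 0.037 with none, 0.033 in DESeq2 and 0.14 in limma voom. In limma voom Fmr1 was -2.34, Fxr2 -2.27, Igf2bp2 -1.48, Fxr1 0.45 and Prrc2a -3.30. Correlations of deviations from the group means were -0.0043 for replicate number 1 and 0.0095 for number 2. The deviations of the 2 libraries labelled WT mirror each other, so these values cannot show whether the replicate numbers pair the libraries. With the replicate block edgeR called 0 genes. Fmr1 was then -4.62, Fxr2 -3.78, Igf2bp3 -0.86, Fxr1 0.52 and Prrc2a -4.85, the lowest value of Prrc2a in any fit. With Ythdf3-/- 1 alone against both labelled WT, Igf2bp2 was 0.30, Igf2bp3 0.23, Fmr1 -9.50 and Fxr2 -10.32; the last 2 rest on counts of 0 and are no measure of size; Fxr1 was 0.23 and Prrc2a -4.11. With WT 1 against Ythdf3-/- 2 and 3, Igf2bp2 was -2.40, Igf2bp3 -1.14, Fxr1 0.85 and Prrc2a -1.24. With each library left out in turn, values ran from -1.79 to 0.27 for Igf2bp2, from -0.97 to 4.98 for Igf2bp3, from -3.36 to 1.34 for Fmr1, from -0.47 to 0.97 for Fxr1, from -1.54 to 1.20 for Fxr2 and from -4.68 to -1.49 for Prrc2a. For the rest the cause was not tested. Fits that leave 1 library in a group assume that it varies like the others. At 0 counts nothing below 3 counts per library can be read.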
